A study of Mus musculus with 8 samples.

Results

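The genes described here are 10 markers of the integrated stress response, among them 2 stress-induced secreted proteins of muscle, read in gastrocnemius (GAS) muscle after knockdown of MYTHO. They are Atf4, Ddit3, Trib3, Asns, Chac1, Sesn2, Psat1, Phgdh, Fgf21 and Gdf15, and each was taken by its symbol in the deposited array table. All 10 were found, out of 22206 probe sets in all. A probe set is a group of short probes that in most cases reports 1 gene, and 836 of the probe sets name several genes. Only Ddit3 had a second probe set, and the brighter of the pair was used.

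Expression was measured on Clariom S Mouse arrays in GAS muscle of male C57/Bl6j mice, labelled as 14 weeks old. The muscle of 1 leg received an adeno-associated virus (AAV) of serotype 1 with a short hairpin RNA against the MYTHO transcript, D230025D16Rik, and the contralateral leg received the same kind of virus with a scrambled hairpin. Both hairpins were driven by a U6 promoter, which is active in any cell type that the virus enters. Muscles were taken 3 weeks after injection, at which the mice were about 10 weeks old, and each group held 4 arrays.

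The groups are named scrmb and MYTHO below. No uninjected muscle was part of this comparison, so both groups share the injection, the virus and a hairpin. Column headers tie each MYTHO array to the scrmb array of the same animal, and these animals are called A to D. Values are log2 signals, in which a difference of 1 is a doubling, and they are given in the order of animals A, B, C and D. Signals of different probe sets were not compared as amounts of RNA.

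The targeted D230025D16Rik read 11.35, 11.31, 10.78 and 11.05 in scrmb and 8.16, 8.20, 8.80 and 8.08 in MYTHO, lower in 4 of 4 animals. The difference was -2.81 (SE 0.21; limma adjusted p = 0.00044, n = 4 per group). The arrays otherwise had nearly equal medians, from 6.39 to 6.47. The muscle markers Acta1, Myh4 and Pygm were at the ceiling of the scale, 19.93, on all 8 arrays, as high as this scale can show for the markers that define skeletal muscle.

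The integrated stress response is a shared answer of cells to different kinds of stress. Kinases that sense amino acid shortage, unfolded protein in the endoplasmic reticulum, viral RNA or lack of haem all phosphorylate the translation factor eIF2, which slows protein synthesis in general and favours translation of the transcription factor ATF4. ATF4 then switches on genes for amino acid synthesis and uptake, for the loading of tRNAs and for feedback. In muscle, mitochondrial defects and other chronic stress are known to engage this response, and the muscle then releases FGF21 and GDF15 as circulating signals of stress. Because ATF4 and the step above it are set largely by translation and phosphorylation, RNA levels show the response mainly through its target genes.

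The promoter windows of these genes were searched for the element that ATF4 is known to bind. The C/EBP-ATF response element, searched as TGATGNAA with N for any base and on both strands, was present in the promoter windows of Trib3, Asns, Chac1 and Fgf21, 4 of the 10 genes. The windows were RefSeq sequences from 250 bases before to 50 bases after each start site in GRCm38.p6, and the 10 genes had 12 of them. The element was found in 4 of these 12 windows, beside 1304 of all 32851 mouse promoter windows (3.97%). Counted by gene, it was in 1219 of 27025 genes (4.51%). These 4 stretches are shown because ATF4, paired with a C/EBP protein, binds elements of this kind. Each is 30 bases long, is written 5′ to 3′ on the strand of its gene and has the element in capitals.
Trib3, chr2:152344028-152344057, minus strand: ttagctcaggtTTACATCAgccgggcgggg
Asns, chr6:7693214-7693243, minus strand: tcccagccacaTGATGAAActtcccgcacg
Chac1, chr2:119351038-119351067, plus strand: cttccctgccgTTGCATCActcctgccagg
Fgf21, chr7:45615611-45615640, minus strand: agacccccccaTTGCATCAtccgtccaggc
The element read as written in Asns and as its reverse complement in Trib3, Chac1 and Fgf21. Counted from the start site, it covered bases -23 to -16 in Asns, -139 to -132 in Fgf21 and -193 to -186 in Chac1, and bases 15 to 22 after the start in Trib3. A match is a description of the letters and not a measured binding site. No match in the other genes says only that these letters are not in these windows.

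The 10 genes did not move together. Of them, 5 had a higher mean in MYTHO and 5 a lower mean, and their median log2 difference was 0.01, beside -0.005 over all probe sets. With each array left out in turn this median ran from -0.065 to 0.081, so its sign was not settled. None passed limma's test after Benjamini-Hochberg adjustment over all probe sets, at a background of 0.027% of probe sets called. At an unadjusted p under 0.05, Fgf21 was higher and Phgdh was lower, against 4.81% of all probe sets called higher, 7.58% called lower and 12.4% called in either direction. Those background calls were 1068 higher and 1683 lower, and after centring of each array on its median they were 1353 higher and 1408 lower. In none of the 10 did the groups fail to overlap, as they did for 6.46% of all probe sets. The count of 2 fell to 0 without scrmb of animal B, and to 1 without scrmb of animal C, scrmb of animal D, MYTHO of animal B or MYTHO of animal C. Over all 22206 probe sets, the same fits called from 2110 to 3196 in either direction, beside 2751 with all arrays.

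**Figure D1:**
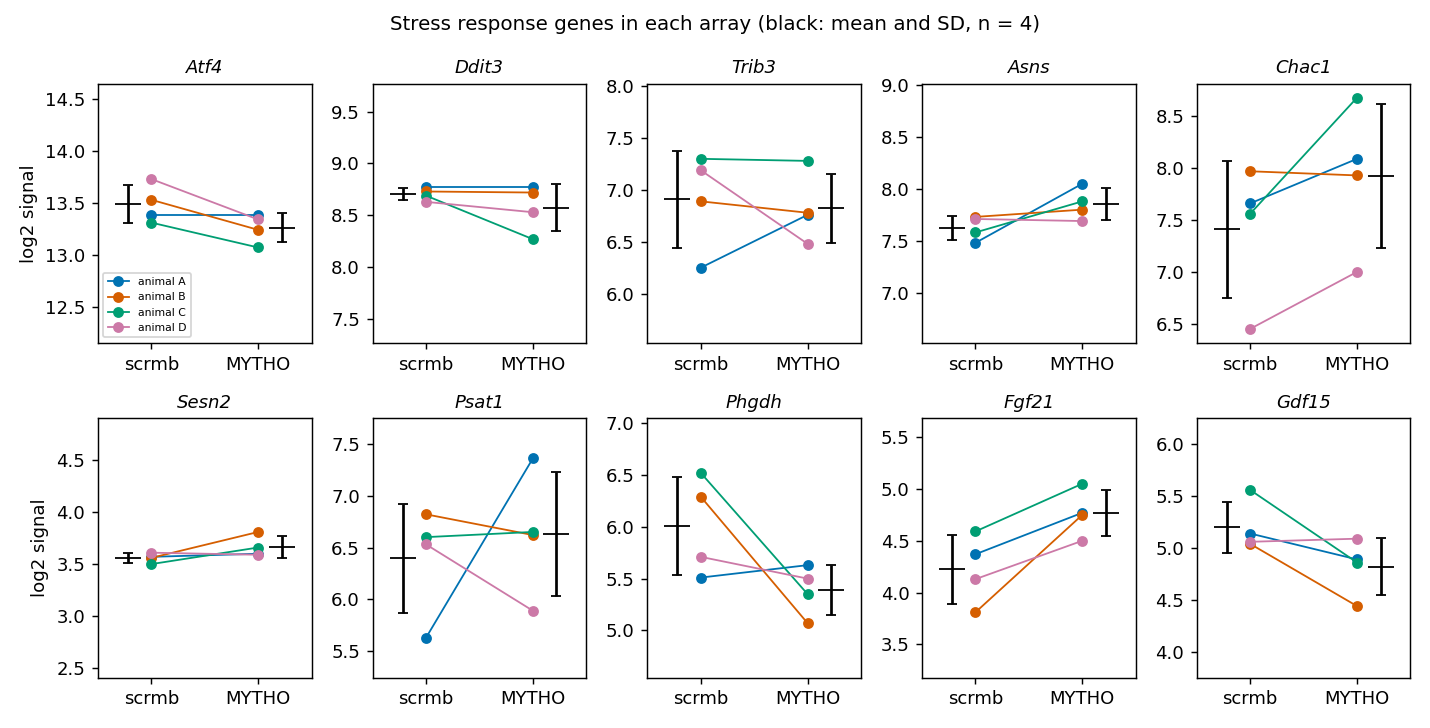
Log2 signal (y axis) of the 10 genes on each of the 8 arrays, in a panel per gene, with lines that join the scrmb and MYTHO legs of the same animal and black bars for the group mean and SD (n = 4). Fgf21 was higher in MYTHO in 4 of 4 animals, and in no gene did the groups separate without overlap.

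Among the transcription factors of the response, neither Atf4 nor Ddit3 differed beyond the spread of the arrays. Atf4 codes for its central factor and lies at chr15:80255184-80257545. It read 13.38, 13.53, 13.31 and 13.73 in scrmb and 13.38, 13.24, 13.07 and 13.34 in MYTHO. Animal A had the same signal in both legs, the other 3 animals had less in the MYTHO leg, and the groups overlapped. The means were 13.49 ± 0.19 and 13.26 ± 0.14 (SD, n = 4 each), a difference of -0.23 with a 95% interval from -0.61 to 0.15 (limma adjusted p = 0.645), and was -0.15 without scrmb of animal D. On the fold scale the interval ran from 0.656 to 1.11.

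Ddit3 (chr10:127290793-127296291) codes for CHOP, a factor that ATF4 induces and that drives the late, death-prone phase of the response. Its signals of 8.77, 8.73, 8.69 and 8.63 in scrmb stood against 8.77, 8.72, 8.27 and 8.53 in MYTHO. Only animal C had a gap between the legs, of -0.42, that was larger than 0.1 in size. The difference of the means was -0.13 (95% interval -0.51 to 0.25; limma adjusted p = 0.81), and it was -0.032 without MYTHO of animal C. The second, dimmer Ddit3 probe set, which its identifier gives as unmapped, pointed the other way. It read 7.24, 7.03, 7.17 and 6.59 in scrmb and 7.38, 7.26, 7.16 and 7.10 in MYTHO, a difference of 0.22 (SE 0.19; limma adjusted p = 0.701), so the direction of Ddit3 was not settled.

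The probe sets whose signals followed Atf4 most closely over the 8 arrays were those of Znhit2 (Pearson r = 0.978), 4930447A16Rik (r = 0.967) and Psmd8 (r = 0.959). Psmd8 codes for a subunit of the proteasome. These 3 were picked for this likeness out of the whole table, and both legs of an animal enter each r.

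Of the 3 feedback and effector genes, Chac1 had the largest difference and also the widest spread. Chac1 (chr2:119351242-119354326) codes for an enzyme that breaks down glutathione and is a sensitive ATF4 target. It read 7.66, 7.97, 7.56 and 6.45 in scrmb and 8.09, 7.93, 8.68 and 7.0 in MYTHO. Animal D was lowest in both legs, and 3 of 4 animals were higher in the MYTHO leg. The means were 7.41 ± 0.66 and 7.93 ± 0.70 (SD, n = 4 each), a difference of 0.52 with a 95% interval from -0.30 to 1.33 (limma adjusted p = 0.628). With the animal as a block the interval narrowed to 0.015 to 1.02, and limma gave an unadjusted p of 0.0449 and an adjusted p of 0.383. With the animal as a random block the unadjusted limma p was 0.175. The difference was 0.20 without scrmb of animal D, 0.26 without MYTHO of animal C and 0.82 without MYTHO of animal D.

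Trib3 codes for a pseudokinase that restrains ATF4 and CHOP, and its gene lies at chr2:152337425-152344060. In scrmb it read 6.25, 6.89, 7.30 and 7.19 and in MYTHO 6.76, 6.78, 7.28 and 6.48. The legs of animal A differed by 0.51 and those of animal D by -0.71, while animals B and C hardly differed. The mean difference of -0.08 (95% interval -0.64 to 0.48; limma adjusted p = 0.931) turned positive without scrmb of animal C, at 0.0483, without scrmb of animal D, at 0.012, and without MYTHO of animal D, at 0.0325.

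Sesn2 (chr4:132492804-132510456) codes for Sestrin 2, a leucine sensor that holds back the growth kinase complex mTORC1. Its probe set was among the dimmest 1.37% of the table. Signals were 3.57, 3.56, 3.50 and 3.61 in scrmb and 3.60, 3.81, 3.66 and 3.59 in MYTHO. The difference was 0.11 (95% interval -0.24 to 0.45; limma adjusted p = 0.84), and was 0.057 without MYTHO of animal B. No detection call was used, so it is not known whether Sesn2 stood above background on these arrays.

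Of the 3 biosynthetic enzymes, only Phgdh had an unadjusted p under 0.05. Phgdh (chr3:98313171-98339969) codes for phosphoglycerate dehydrogenase, the first enzyme of serine synthesis, and had the largest negative difference of the 10 genes. It read 5.51, 6.29, 6.52 and 5.71 in scrmb and 5.63, 5.07, 5.35 and 5.50 in MYTHO. The gap came from animals B and C, at -1.22 and -1.17, while animal D differed by -0.21 and animal A by 0.12, and the groups overlapped. The means were 6.01 ± 0.48 and 5.39 ± 0.24 (SD, n = 4 each), a difference of -0.62 with a 95% interval from -1.15 to -0.09. In limma this gave an unadjusted p of 0.0257 and an adjusted p of 0.329, and the exact two-sided permutation test over 70 relabellings gave p = 0.0571. The unadjusted limma p was 0.0738 without scrmb of animal B, 0.0856 without scrmb of animal C and 0.0746 without MYTHO of animal B.

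Psat1 (chr19:15905123-15925059), which codes for the next enzyme of serine synthesis, did not pass, and the difference between it and Phgdh was not tested. Its signals were 5.63, 6.82, 6.60 and 6.53 in scrmb and 7.36, 6.62, 6.65 and 5.89 in MYTHO. Animal A held the lowest scrmb and the highest MYTHO value, a gap of 1.73 between its legs, and animal D had a gap of -0.64. The mean difference of 0.24 (95% interval -0.47 to 0.94; limma adjusted p = 0.82) rested on animal A, and was -0.02 without its scrmb array and -0.0083 without its MYTHO array.

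Asns (chr6:7675165-7693209) codes for asparagine synthetase, a classic ATF4 target. It read 7.48, 7.73, 7.58 and 7.71 in scrmb and 8.05, 7.80, 7.88 and 7.69 in MYTHO, higher in 3 of 4 animals with overlap of the groups. The difference was 0.23 (95% interval -0.14 to 0.60; limma adjusted p = 0.628), and the exact two-sided permutation test gave p = 0.0857. Across the 8 arrays Asns and Psat1 varied together once the group means were removed (r = 0.923), and in both the legs of animal A were the farthest apart. Phgdh and Gdf15 had an r of 0.645 by the same measure. The pairs farthest below 0 were Sesn2 with Gdf15 (-0.895), Atf4 with Fgf21 (-0.698), Atf4 with Chac1 (-0.689) and Sesn2 with Phgdh (-0.679). These values are descriptions picked from 45 pairs, and the 2 legs of an animal are not independent. The pairs with Sesn2 rest on small shifts of a dim signal, which ran only from 3.50 to 3.81 over the 8 arrays.

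Of the 2 stress myokines, Fgf21 had an unadjusted p under 0.05 and Gdf15 did not, and the difference between the 2 genes was not tested. Fgf21 (chr7:45613890-45615490) codes for a hormone that stressed muscle and liver release and that acts on fat and brain. It read 4.37, 3.81, 4.59 and 4.13 in scrmb and 4.77, 4.75, 5.05 and 4.50 in MYTHO. Every animal was higher in the MYTHO leg, by 0.40, 0.94, 0.46 and 0.37, although the highest scrmb array exceeded the lowest MYTHO array. The means were 4.23 ± 0.33 and 4.77 ± 0.22 (SD, n = 4 each), a difference of 0.54 with a 95% interval from 0.09 to 1.00. As a fold this was 1.46, with an interval from 1.06 to 2.00. Limma gave an unadjusted p of 0.0238 and an adjusted p of 0.324, and with the animal as a block 0.0187 and 0.297. The exact two-sided permutation test gave p = 0.0571, where 0.0286 is the smallest p that 4 arrays against 4 allow. The probe set was dim, among the lowest 11.7% of the table, and the unadjusted limma p was 0.0823 without scrmb of animal B, 0.0518 without scrmb of animal D and 0.0694 without MYTHO of animal C. As for Sesn2, no detection call was used, so it is not known whether Fgf21 stood above background.

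Gdf15 (chr8:70629393-70632470) codes for a circulating factor of the TGF-beta family that reduces food intake. Its signals were 5.14, 5.04, 5.56 and 5.06 in scrmb and 4.89, 4.44, 4.86 and 5.09 in MYTHO. Animals A, B and C were lower in the MYTHO leg and animal D was level at 0.03. The means were 5.20 ± 0.24 and 4.82 ± 0.27 (SD, n = 4 each), a difference of -0.38 with a 95% interval from -0.82 to 0.06 (limma adjusted p = 0.475), and was -0.25 without MYTHO of animal B. Its probe set was among the dimmest 22.4%.

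**Figure D2:**
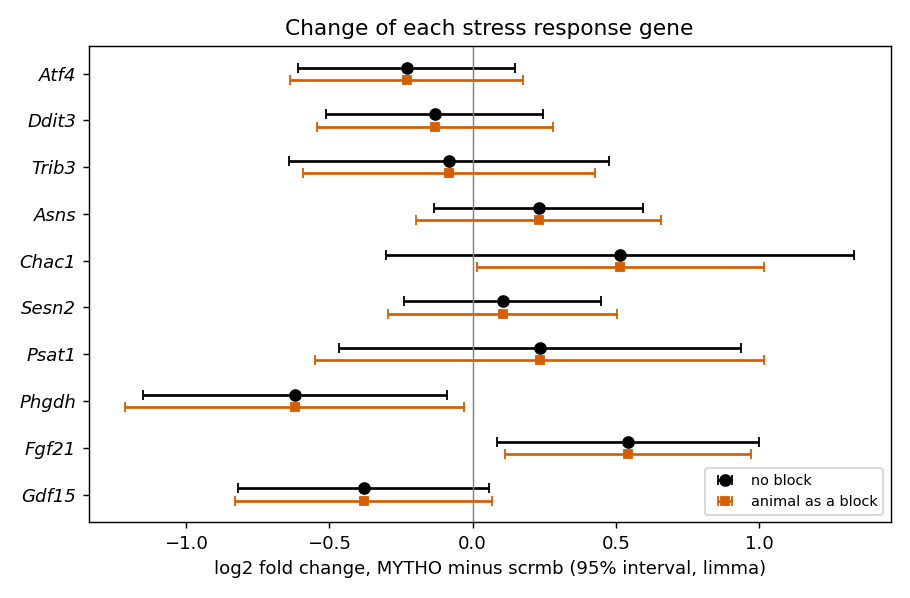
Log2 difference (x axis, MYTHO minus scrmb) of each of the 10 genes with its 95% interval from limma, without a block (black circles) and with the animal as a block (orange squares). Without the block the intervals of Fgf21 (0.09 to 1.00) and Phgdh (-1.15 to -0.09) leave out 0, and with it that of Chac1 does too.

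**Figure D3:**
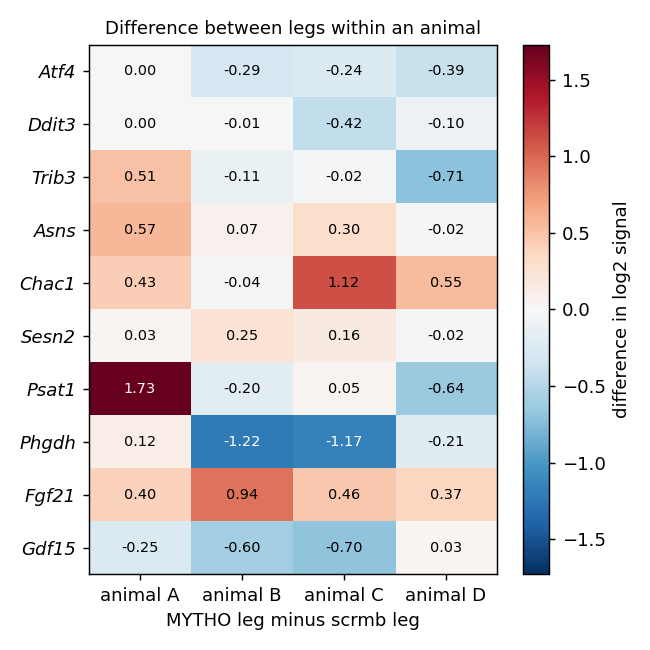
Difference in log2 signal between the MYTHO and the scrmb leg of each animal (columns, A to D) for the 10 genes (rows), as a colour from blue (lower in MYTHO) to red (higher) with the value printed. Fgf21 was above 0 in 4 of 4 animals, and the largest gaps were those of Psat1 in animal A (1.73) and Phgdh in animals B (-1.22) and C (-1.17).

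The genes around these markers were read from 10 lists of the pathway with 128 genes, all of them found on the array. At an unadjusted p under 0.05, 9 were higher, 6 were lower and 113 did not pass. The median log2 difference was 0.08, and no gene passed after adjustment in limma (lowest adjusted p = 0.234). The shares called, 9 and 6 of 128, are to be read against 4.81% and 7.58% of all probe sets.

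The machinery above ATF4 held 17 listed genes, of which 2 were higher and 2 lower at that threshold. Eif2ak4 codes for GCN2, the eIF2 kinase that senses uncharged tRNA. It read 7.14, 7.31, 7.02 and 7.03 in scrmb and 7.57, 7.55, 7.64 and 7.92 in MYTHO, without overlap. The difference was 0.55 (SE 0.17; limma unadjusted p = 0.008, adjusted p = 0.234). Impact codes for an inhibitor of GCN2 and went the other way. It read 10.03, 9.89, 9.72 and 9.72 in scrmb and 9.25, 9.40, 9.35 and 9.41 in MYTHO, also without overlap (difference -0.49, SE 0.16; limma unadjusted p = 0.0117, adjusted p = 0.261). Eif2s2 codes for the beta subunit of eIF2 itself. Its signals of 16.33, 16.31, 16.64 and 16.29 in scrmb stood above 15.96, 15.97, 15.56 and 15.90 in MYTHO (difference -0.55, SE 0.18; limma unadjusted p = 0.00989, adjusted p = 0.247). Eif2b2, for a subunit of the exchange factor that reloads eIF2, read 7.84, 7.21, 7.69 and 8.41 in scrmb and 8.80, 8.28, 8.49 and 8.38 in MYTHO, with overlap (difference 0.70; limma unadjusted p = 0.0149, adjusted p = 0.278).

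Below ATF4, its 7 listed dimerisation partners and related factors had no call. The lowest p was that of Cebpg, which codes for a C/EBP partner of ATF4 and was lower by 0.46 on average and in 4 of 4 animals (limma adjusted p = 0.426), with an unadjusted limma p of 0.0321 with the animal as a block. With the animal as a random block its unadjusted limma p was 0.0507. Among 46 listed target genes in 4 lists, 4 were higher, 3 were lower and 39 did not pass, with a median difference of 0.04.

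Of these targets, 13 genes served tRNA charging and tRNA export, and 3 of them were lower and none higher at that threshold. Negative differences were seen for 9 of 13, beside 50.6% of all probe sets, and the median was -0.25. Among these 9, Aars was read from a probe set that also names Exosc6. The mean signal of the list differed between the legs by -0.025, -0.086, -0.36 and -0.21 in animals A to D. Iars, for the isoleucine enzyme, differed by -0.58 (limma unadjusted p = 0.0195, adjusted p = 0.304), Sars, for the serine enzyme, by -0.46 (0.0293 and 0.344) and Gars, for the glycine enzyme, by -0.41 (0.0391 and 0.374). Each of these 3 was lower in 4 of 4 animals, and the Sars groups, 10.82 to 11.29 in scrmb and 10.30 to 10.76 in MYTHO, did not overlap. With the animal as a block, 1 of the 3 calls was left, that of Iars (limma unadjusted p = 0.014).

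The 11 other listed enzymes of serine, one-carbon and proline metabolism held 2 higher genes and no lower one, with 8 of 11 positive and a median of 0.095. Phgdh and Psat1, the enzymes of serine synthesis described above, were not in this list. Phgdh was lower at that threshold (difference -0.62) and Psat1 did not pass (difference 0.24). The mean of the 11, taken without Phgdh and Psat1, was higher in the MYTHO leg of 4 of 4 animals, by 0.015 to 0.35. Shmt2, for the mitochondrial enzyme that takes serine into the folate cycle, was higher by 0.64 (limma adjusted p = 0.349) and by 0.42 without scrmb of animal C, and Got1, for a cytosolic transaminase of aspartate, by 0.74 (limma adjusted p = 0.356), each in 3 of 4 animals. With the animal as a block the Got1 call was lost (limma unadjusted p = 0.0607) and Aldh1l2, for a mitochondrial folate enzyme, was called (difference 0.53; limma unadjusted p = 0.0371 with the block and 0.0918 without). With the animal as a random block the unadjusted limma p was 0.0804 for Aldh1l2 and 0.0314 for Got1. None of 10 amino acid transporters passed. The lowest p among them was that of Slc7a1, a carrier of arginine and lysine, which differed by 0.50 (limma adjusted p = 0.438) and had an unadjusted limma p of 0.0234 with the block. Its unadjusted limma p was 0.0548 with the animal as a random block. The 12 other ATF4 targets also held 2 higher genes and no lower one, with 8 of 12 positive, beside 49% of all probe sets, and a median of 0.23. Their mean was higher in the MYTHO leg of 4 of 4 animals, by 0.07 to 0.40. Among them Tnfrsf10b, for a death receptor downstream of CHOP, read 4.61 to 5.42 in scrmb and 5.57 to 6.06 in MYTHO, a difference of 0.62 (limma unadjusted p = 0.0135, adjusted p = 0.27). Ddit4, for an inhibitor of mTORC1, was higher by 0.50 and in 4 of 4 animals (limma adjusted p = 0.378), and its unadjusted limma p was 0.0564 with the block. Cdkn1a, for the cell cycle inhibitor p21, differed by 0.62 and was higher in 4 of 4 animals, with an unadjusted limma p of 0.0868 without the block and 0.01 with it. With the animal as a random block the unadjusted limma p was 0.0736 for Cdkn1a and 0.0365 for Ddit4. Aldh1l2 and Cdkn1a are named after their values were seen.

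**Figure D4:**
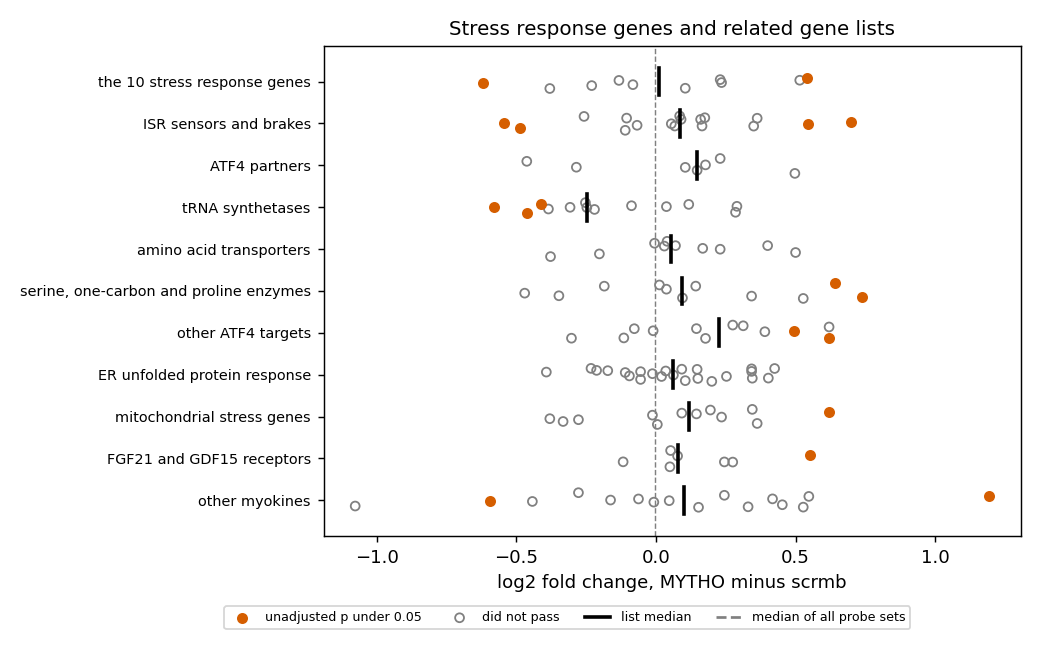
Log2 difference (x axis, MYTHO minus scrmb) of the 10 stress response genes and of every gene in the 10 pathway lists, in a row per list, with filled points for genes at an unadjusted limma p under 0.05, a black bar for the median of each list and a dashed line for the median of all probe sets. The list medians run from -0.25 for the tRNA charging genes to 0.23 for the other ATF4 targets.

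The arms that run beside the eIF2 step gave 1 call. Of 23 genes of the endoplasmic reticulum unfolded protein response none passed, and the lowest p was that of Edem1, for a protein of endoplasmic reticulum degradation, which differed by 0.34 (limma adjusted p = 0.461). Of 12 mitochondrial stress genes, Lonp1, for the main protease of the mitochondrial matrix, was higher in 4 of 4 animals by a mean of 0.62 (limma unadjusted p = 0.00995, adjusted p = 0.248), and the other 11 did not pass.

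The receptors through which the 2 hormones act were read in the same muscle. Klb, for the co-receptor of FGF21, differed by 0.05 (limma adjusted p = 0.964) and Gfral and Ret, for the receptor pair of GDF15, by 0.05 and -0.12 (limma adjusted p = 0.942 and 0.883). Klb, Gfral and Ret were chosen for this role and not by their values. Fgfr3, an FGF receptor, was the only 1 of the 7 genes in this list under the threshold, with a difference of 0.55 (limma unadjusted p = 0.0255, adjusted p = 0.329). Fgfr1, another FGF receptor, is named after its values were seen and differed by 0.28 without passing (limma adjusted p = 0.685). No detection call was used, so it is not known whether these receptors stood above background. Of 16 other secreted factors of muscle, Vegfb, for an endothelial growth factor, was higher by 1.19 (limma unadjusted p = 0.0235, adjusted p = 0.323), with differences of -0.52, 2.74, 2.39 and 0.16 in animals A to D. In the same list Dcn, for the matrix proteoglycan decorin, differed by -0.60 without overlap of the groups (limma unadjusted p = 0.0085, adjusted p = 0.236). Ostn, for the secreted peptide osteocrin, had the largest negative difference of this list, -1.08, and was lower in 4 of 4 animals without passing (limma unadjusted p = 0.0705), while with the animal as a block the unadjusted limma p was 0.00625 and the adjusted p 0.222. With the animal as a random block the unadjusted limma p of Ostn was 0.0597. Ostn is named after its values were seen. With the fixed block this list held 2 higher and 2 lower genes at an unadjusted limma p under 0.05.

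Other features of the muscle differed between the same legs. Of 8 slow fibre markers, 6 were higher at an unadjusted p under 0.05 with a median difference of 1.46, against 4.81% of all probe sets called higher, and the list's mean signal ran from 12.16 to 14.09 in scrmb and from 12.15 to 15.11 in MYTHO. Between the legs this mean differed by 1.03, 2.39 and 2.68 in animals A, B and C and by -0.02 in animal D, beside 0.40, 0.94, 0.46 and 0.37 for Fgf21 in animals A to D. Of 7 endothelial markers, 2 were higher and none lower, against 4.81% and 7.58% of all probe sets, and their mean, 9.42 to 9.80 in scrmb and 10.00 to 10.13 in MYTHO, was higher in 4 of 4 animals. The mean of 7 adipocyte markers differed between the legs by 2.78, -2.45, -1.17 and 0.55 in animals A to D, beside 0.12, -1.22, -1.17 and -0.21 for Phgdh. No rule fixed in advance set Fgf21 and Phgdh beside these lists, and the remaining lists and genes were not set side by side. None of the listed adipocyte, macrophage, T cell, Schwann cell or blood markers passed at that threshold, of 7 fibroblast markers only Dcn did, and of 8 skeletal muscle markers only Mb, for myoglobin, did, with a difference of 0.55 (limma adjusted p = 0.326). The part of these differences in the results above was not tested. In whole muscle, fewer cells of a type and less RNA per cell cannot be told apart.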

How the data were processed

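GAS muscle RNA, extracted with Trizol and labelled with biotin, was hybridised by the authors to Clariom S Mouse arrays. The deposited log2 signals were made with the Transcriptome Analysis Console version 4.0.1 by SST-RMA at gene level on mm10, which corrects background, normalises across arrays and summarises probes. Values were given to 2 decimals, from 2.38 up to 19.93. The submitters' processing notes also list Affymetrix Expression Console and RMA. Further deposited columns hold the authors' own comparison (group averages, fold change, p-values before and after correction) and were not used.

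Here limma 3.58.1 (R 4.3.3; lmFit and eBayes) compared 4 MYTHO with 4 scrmb arrays over all 22206 probe sets, with Benjamini-Hochberg adjustment and a threshold of 0.05. The array methods of the study name an eBayes ANOVA without a pairing term, while its general statistics use paired tests for related groups. The array methods were followed, and the animal was a block in an alternative. The pairing comes from the animal number in the column headers and the contralateral design, and residuals of legs of the same animal correlated from -0.00135 to 0.135. Single genes were also tested by exact permutation (scipy 1.17.1). A gene was read from its brightest probe set, and 204 of 205 listed genes were matched through the symbols in the file and RefSeq synonyms (GRCm38.p6). Named beside the 10 members were, per list, up to 3 genes with the lowest p under 0.05 in each direction or, with none, the gene with the lowest p, plus 3 probe sets most like Atf4. Members and lists were chosen with earlier results of these data known. The fit was also run on simulated arrays with known changes, larger than any difference of the 10 members and without an animal effect. That run does not show how the fit performs on differences of their size or on paired legs. Alternatives covered normalisation, filters on dim probe sets, variance settings, the block, the choice of probe set and each array left out. No read depth applies to arrays, and their number limits the precision.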

Additional observations from a re-analysis of the deposited data

Results flagged for a closer look

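In 104 groups of 4 values, from the named genes and the list means, 11 had an array that stood apart from the other 3 by more than Dixon's 95% criterion, and about 1 in 20 is flagged by chance. None of the 10 stress response genes was among them. D230025D16Rik was highest in MYTHO of animal C, at 8.80 against 8.08 to 8.2. Eif2s2 stood apart in both legs of animal C, at 16.64 against 16.29 to 16.33 in scrmb and at 15.56 against 15.90 to 15.97 in MYTHO. Iars was low in scrmb of animal A, at 11.97 against 12.27 to 12.33. Gars was high in MYTHO of animal D, at 11.74 against 11.58 to 11.60. Pecam1 was 10.48 in MYTHO of animal A and 10.29 on each of the other 3 MYTHO arrays.

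The other flagged values concern slow fibre genes. In MYTHO of animal D, Tnni1 was 9.25 against 12.99 to 13.39, Tnnc1 was 10.52 against 13.56 to 13.72 and Atp2a2 was 13.66 against 15.98 to 16.19. The mean of the slow fibre list was 12.15 on that array against 14.82 to 15.11 on the other 3, and in scrmb it was 14.09 in animal A against 12.16 to 12.43. These flags share genes and are not independent of each other.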

How the results depend on the processing

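The 10 stress response genes kept their direction and stayed without an adjusted call in 167 of 173 recomputed values. The 6 exceptions were changes of sign: Ddit3 was 0.0425 when its 2 probe sets were averaged, Trib3 ran from -0.30 to 0.0483 and Psat1 from -0.02 to 0.48 with each array left out in turn. Of the other named genes 486 of 488 values kept theirs, and Fabp4, an adipocyte marker without a call, ran from -0.0708 to 0.33 with each array left out. The count of stress response genes at an unadjusted p under 0.05 was 2. It was 1 among the brighter 75% of probe sets and 0 among the brighter 50%, where dim genes such as Fgf21 are no longer tested, and 0 to 3 with each array left out, the 3 without MYTHO of animal D, where Chac1 joined. Over all probe sets tested, the main fit called 2751, the brighter 75% held 2358 calls of 16657 and the brighter 50% held 1779 of 11104. With each array left out these calls ran from 2110 to 3196, at 2640 without MYTHO of animal D. The count of stress response genes without overlap was 0, was 1 after quantile normalisation and was 0 to 3 with each array left out, at 3 without MYTHO of animal D and at 1 without either leg of animal A or scrmb of animal C or D. Over all probe sets that count was 1435, was 1537 after quantile normalisation and ran from 1952 to 2992 with each array left out. It was 2334 without MYTHO of animal D. With the animal as a block, 3 stress response genes had an unadjusted p under 0.05 and no adjusted call was gained. The calls in the pathway lists were then 17 in place of 15, and those over all probe sets 2798 in place of 2751. The number of probe sets with an adjusted call, 6 of 22206, was 160 with trended and robust variances, 154 without scrmb of animal D, 60 without saturated probe sets, 44 after median centring, 34 with a random animal block, 2 with the fixed block and 1 with any of the other arrays left out, and under none of these was a stress response gene called. Median centring moved all differences by 0.04. Adjusted p ranged from 0.257 to 0.558 for Fgf21 and from 0.24 to 0.596 for Phgdh. The dim signals of Sesn2, Fgf21 and Gdf15 limit what these arrays can show. Leaving out saturated probe sets and treating the animal as random were both added after the data were seen.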
